A study of Mus musculus with 24 samples.

Results

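The carriers that move glucose and amino acids between mother and fetus were taken from a gene count table of the mouse maternal-fetal interface (MFI) as 8 solute carrier families, namely every gene whose symbol is Slc1a, Slc2a, Slc3a, Slc6a, Slc7a, Slc36a, Slc38a or Slc43a followed by a number. This rule used the names only and found 73 of the 55401 genes in the table. Bulk polyA RNA was sequenced from the MFI of wild-type (WT) and *C1qtnf6*-knockout (C1qtnf6-KO) mice at 4 stages named by gestation day (gd10.5 and gd14.5 in mid gestation, gd16.5 later and gd19.5 near term), with 3 libraries in each of the 8 groups. All mice were of C57BL/6 background, none received a treatment that the labels name, and the KO mice were homozygous for a CRISPR-Cas9 deletion of exons of *C1qtnf6*, the gene of the secreted protein CTRP6, a change that is not limited to a cell type. The 1 KO line came from a vendor. The labels give neither the age of the mothers nor litter, mother or pooling, so that *p*-values measure the spread between these samples, which may be technical.

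Glucose passes the placenta down its gradient through facilitative GLUT carriers of the Slc2a family. Amino acids are first concentrated in the trophoblast by sodium-coupled accumulators, such as system A (Slc38a) and the Slc1a and Slc6a carriers, and then leave through exchangers, such as system L, in which a light chain (Slc7a5 or Slc7a8) pairs with the heavy chain encoded by *Slc3a2*. In the mouse, the exchange area is the labyrinth, beside which the yolk sac and the maternal decidua also take up and hand on nutrients.

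Total counts ran from 20975717 to 37383108 per library, and levels are given as CPM, the counts scaled to a common library size after TMM normalization. The limit of detection was set at 3 counts. Of the 73 members, 52 had over 3 counts in every library and 3 had no more than 3 in any library. The expression filter let 63 members into at least 1 of 14 comparisons, 50 into all of them and 10 into none. The deleted gene *C1qtnf6* had 64.6 to 165 CPM in WT libraries and 0.0341 to 2.02 CPM in KO libraries. Markers of yolk sac endoderm, the 8 genes *Afp*, *Ttr*, *Apoa4*, *Apob*, *Amn*, *Cubn*, *Rbp4* and *Hnf4a*, of which 7 had over 3 counts in every library, summed to over 1000 CPM in 7 libraries and to 37.3 to 456 CPM in the other 17. These 7 were WT gd10.5 replicate 1, all 3 KO gd10.5 libraries, WT gd16.5 replicate 1 and KO gd16.5 replicates 1 and 2. KO gd10.5 replicate 2 stood apart by its markers of spongiotrophoblast and glycogen cells, 11974 CPM against 902 to 2128 CPM in the other 5 libraries of gd10.5. Its Y-linked genes summed to 71.7 CPM, against 0.0371 to 0.314 CPM in those 5. At gd16.5 the Y-linked sum was 89.4, 192 and 187 CPM in the libraries with yolk sac markers and 0.489 to 1.12 CPM in the others. Y-linked expression and yolk sac markers cannot be told apart at that stage. For several members, values without libraries with yolk sac markers or without KO gd10.5 replicate 2 are given beside the result.

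Compared per kb of gene length, *Slc2a1* (GLUT1, the main placental glucose carrier) had the highest level of all members, with a highest group mean of 462 CPM per kb in KO at gd19.5. *Slc38a4* (SNAT4, a system A carrier and an imprinted gene) followed with 301 CPM per kb in KO at gd16.5. Next came *Slc6a12* (the betaine and GABA carrier BGT1) with 168, *Slc3a2* (the heavy chain 4F2hc, CD98) with 138, *Slc7a5* (the light chain LAT1) with 114 and *Slc7a8* (the light chain LAT2) with 72.8 CPM per kb in their highest groups. *Slc38a2* (SNAT2) reached 66.9, *Slc7a1* (the cationic carrier CAT1) 58.4, *Slc6a2* (the noradrenaline carrier) 56.4 and *Slc6a8* (the creatine carrier) 49.3 CPM per kb. These 10 members were 1 glucose carrier, 2 system A carriers, 1 heavy chain, 3 light chains or cationic carriers and 3 Slc6a carriers. The other members stayed below 45 CPM per kb in every group. The order of close neighbours is not resolved beyond the spread of libraries. In WT at gd16.5, for example, *Slc38a2* had 56.4 to 78.1 CPM per kb, *Slc7a1* 48.6 to 73.6 and *Slc7a8* 51.1 to 63.1.

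The first question was how the carriers change between the stages of the MFI. In WT from gd10.5 to gd14.5, 22 of 61 members tested passed the test (quasi-likelihood test of edgeR, with a limit of 0.05 on the adjusted *p* and of 1 on the size of the log2 fold change), while 22.2% of all genes did. Of these, 14 rose and 8 fell, against 10.7% and 11.6% of all genes. The median log2 fold change was 0.07 over the members and -0.01 over all genes tested. From gd14.5 to gd16.5, 11 of 61 members passed, 8 up and 3 down, against 5.6% of all genes (3.04% up, 2.55% down), with medians of 0.28 and -0.01. From gd16.5 to gd19.5, 2 of 61 passed, 1 up and 1 down, against 2.14% of all genes (1.2% up, 0.939% down), and the medians were -0.13 and -0.01. Over the whole span from gd10.5 to gd19.5, 30 of 61 members passed, 19 up and 11 down, against 29.3% of all genes (15.2% up, 14.1% down), with medians of 0.20 and -0.01. At each of these comparisons the share of members that passed was above that of all genes, a difference that was not tested. The count of 11 fell to 6 without WT gd14.5 replicate 1 and to 7 without WT gd14.5 replicate 3, and the count of 2 fell to 1 without any of 4 libraries (WT gd14.5 replicate 3, gd16.5 replicate 3, gd19.5 replicates 2 and 3). Leaving out the WT libraries with yolk sac markers gave 21, 10, 3 and 31 for the 4 WT comparisons. In bulk tissue, fewer cells of a type and less RNA per cell cannot be told apart. Cell markers moved at the first WT step too. Summed markers of spongiotrophoblast and glycogen cells were at 1478 to 2128 CPM at gd10.5 and 29953 to 32144 CPM at gd14.5. Those of labyrinth trophoblast were at 414 to 578 and 876 to 987 CPM. Decidual stroma markers fell from 6498 to 14255 CPM to 3099.6 to 3379 CPM, and NK cell markers from 834 to 1249 CPM to 183 to 252 CPM. The part of these cell types in the carrier changes was not tested.

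In KO, 24 of 62 members passed between gd10.5 and gd14.5, 12 up and 12 down, against 18.7% of all genes (8.53% up, 10.2% down). From gd14.5 to gd16.5, 13 of 62 passed, 9 up and 4 down, against 7.53% of all genes (4.78% up, 2.76% down). Over the whole span 34 of 62 passed, 21 up and 13 down, against 27.6% (13.6% up, 14% down). From gd16.5 to gd19.5, no member passed with edgeR, against 0.693% of all genes (0.255% up, 0.439% down). An unadjusted *p* under 0.05 was seen for 19 members, against 18.3% of all genes, and DESeq2 called 7 and limma voom 3. The medians over the members were 0.13, 0.22, 0.02 and 0.19 for the 3 steps and the span, beside 0, 0, 0 and -0.02 over all genes. Single libraries weighed on these counts. The 24 calls fell to 15 without KO gd10.5 replicate 3, the 13 calls fell to 6 without KO gd14.5 replicate 2 and to 8 without KO gd16.5 replicate 2, and the 0 calls of the last step became 7 without KO gd10.5 replicate 2 and 6 without KO gd16.5 replicate 3. Without KO gd16.5 replicates 1 and 2, which held yolk sac markers, 5 members passed from gd14.5 to gd16.5. All 3 KO libraries of gd10.5 held such markers, so that the first KO step cannot be repeated without them. With the summed markers as a covariate, which is largely aligned with this step, 5 members passed.

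Most calls of the first step were made in both genotypes. Of the members called from gd10.5 to gd14.5, 18 were called in both WT and KO and all in the same direction, which is 81.8% of the WT calls and 75% of the KO calls, beside 69.8% and 83% over all genes. From gd14.5 to gd16.5, 5 were shared, 45.5% of the WT and 38.5% of the KO calls (67.3% and 50.2% over all genes), namely *Slc1a4*, *Slc6a19* and *Slc7a8* upward and *Slc1a2* and *Slc38a8* downward. Over the whole span 28 were shared, 93.3% of the WT and 82.4% of the KO calls (78.8% and 84% over all genes), all in the same direction. The WT and KO steps share no library. That a member passed in 1 genotype and not in the other does not show a difference between them, which the interaction test described further on addresses.

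**Figure D1:**
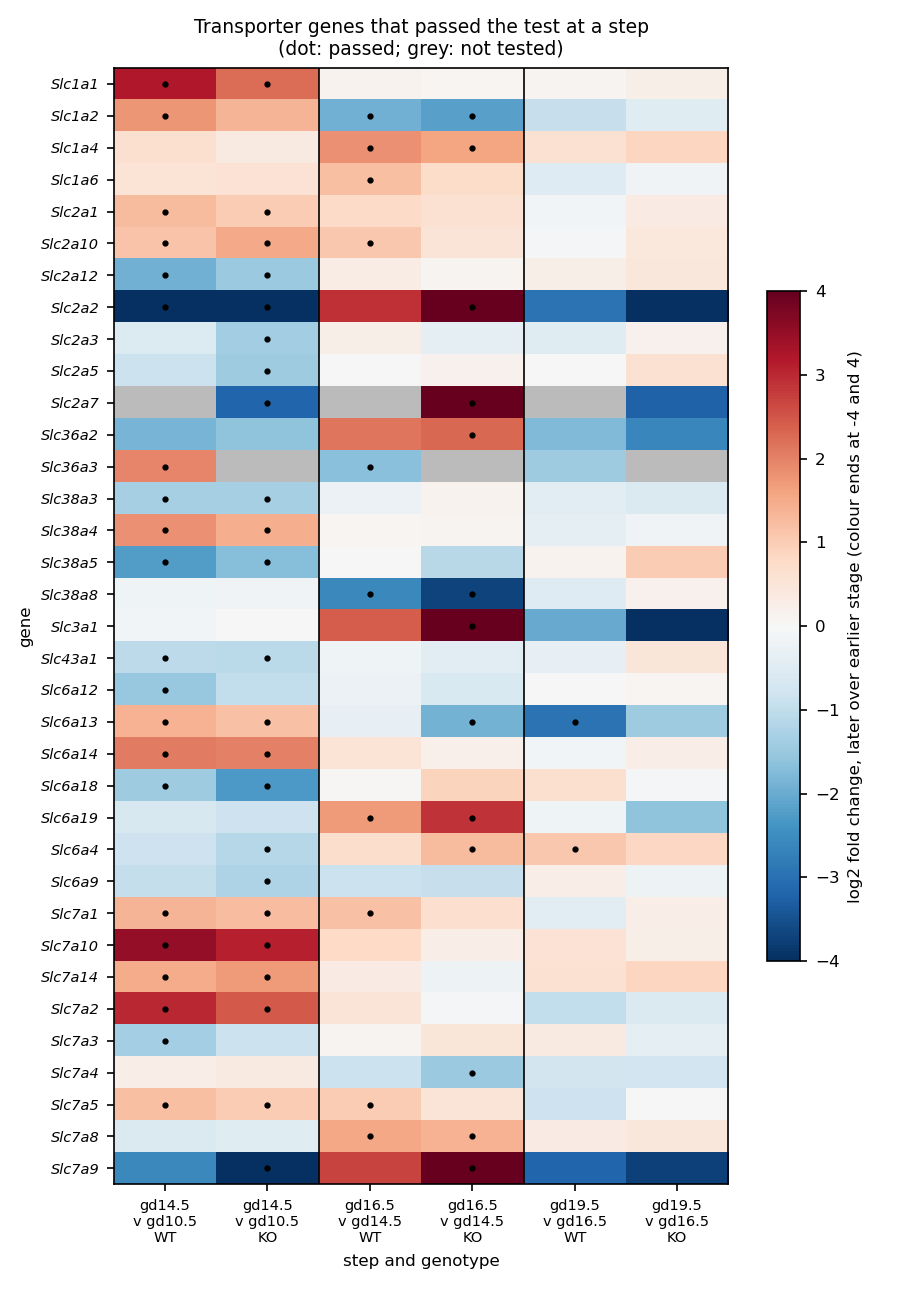
Log2 fold changes of 35 of the members that passed the test at a step in WT or KO, with later over earlier stage in colour (red, higher; blue, lower; the colour ends at -4 and 4), a dot where the test was passed and grey where the gene was not tested. Most dots stand in the columns of the first step, and the last step has dots for *Slc6a13* and *Slc6a4* in WT only, a contrast between genotypes that was not called by the interaction test.

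Among the GLUT carriers, *Slc2a1* held most of the summed level and rose. *Slc2a1* (chr4:119108711-119137983, forward strand, GRCm38) had 358, 302 and 459 CPM in the WT libraries at gd10.5, then 871, 989.5 and 887 (gd14.5), 1400.3, 1477 and 1752 (gd16.5) and 1586, 1485 and 1147 (gd19.5). In KO it had 363, 565 and 339 CPM, then 788, 804 and 975, 1441, 1000.2 and 1432 and 1827, 1507 and 1521. Every library of gd14.5 lay above every library of gd10.5 in both genotypes. The libraries of gd16.5 and gd19.5 overlapped in WT, while in KO every library of gd19.5 lay above every library of gd16.5. It rose from 373 ± 79.8 to 916 ± 64.3 CPM in WT at the first step (SD, n = 3; log2 fold change 1.27, SE 0.162, adjusted *p* = 2.51e-05) and also in KO (log2 fold change 1.01, SE 0.216, adjusted *p* = 0.00329), where the call was lost without KO gd10.5 replicate 1, KO gd10.5 replicate 3 or KO gd14.5 replicate 3. Over the whole span the log2 fold change was 1.93 (SE 0.165, adjusted *p* = 4.1e-07) in WT and 1.95 (SE 0.221, adjusted *p* = 2.59e-05) in KO. Its share of the summed level per kb of all 12 Slc2a genes went from 79% ± 7.69 (SD, n = 3) in WT at gd10.5 to 95.9% ± 0.367 at gd19.5.

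*Slc2a3* (GLUT3) varied more between libraries at gd10.5 than at later stages, with 161, 81.2 and 70.5 CPM in WT and 227, 51.5 and 264 CPM in KO, and had 71.9, 56.5 and 50 and 68.1, 58.8 and 56.8 CPM at gd19.5. The high values at gd10.5 were in libraries with yolk sac markers, which the low KO replicate 2 also held. The fall of *Slc2a3* at the first step passed in KO (log2 fold change -1.38, SE 0.425, adjusted *p* = 0.0204), not in WT (log2 fold change -0.56, SE 0.237, adjusted *p* = 0.0606), and the KO call was lost without any of 4 libraries, KO gd10.5 replicates 1 and 3 and KO gd14.5 replicates 1 and 3. It was also lost with the yolk sac markers as a covariate. *Slc2a12* (GLUT12) fell early, from 40.5, 37.6 and 27.5 CPM at gd10.5 to 9.6, 7.78 and 11.3 CPM at gd14.5 in WT (log2 fold change -1.91, SE 0.176, adjusted *p* = 1.72e-06), and these groups did not overlap. In KO it went from 25.4 ± 15.5 CPM (SD, n = 3) to 8.58, 7.95 and 10.8 CPM (log2 fold change -1.49, SE 0.369, adjusted *p* = 0.00717). There the low value at gd10.5 was that of replicate 2, it overlapped with gd14.5, and the call was lost without replicate 3 of gd10.5. *Slc2a10* (GLUT10) rose at the first step in both genotypes from under 1 CPM, to 1.65 ± 0.194 CPM in WT and 1.94 ± 0.183 CPM in KO. The levels of *Slc2a4* (GLUT4), *Slc2a5* (the fructose carrier GLUT5) and *Slc2a7* stayed between 0.0493 and 1.01 CPM in every group mean, and the calls they gave in KO rest on few reads. *Slc2a6*, *Slc2a8* and *Slc2a9* passed no test at any step or over the span, and *Slc2a13* (a myo-inositol carrier) rose over the span in WT and KO, by 1.34 and 1.53 on the log2 scale.

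Of the 3 system A genes, only *Slc38a4* passed the test, and it rose at the first step. *Slc38a4* (chr15:96994820-97055956, reverse strand, GRCm38) went in WT from 287, 299 and 432 CPM at gd10.5 to 1141, 1271 and 1251 (gd14.5), 1279, 1183 and 1347 (gd16.5) and 948, 999.8 and 948 (gd19.5). In KO the values were 313, 802 and 212, 1149.8, 1122 and 1379, 1345, 1155 and 1346 and 1203, 1157 and 1169.6 CPM. KO gd10.5 replicate 2 was the high library of its group, and the groups of gd10.5 and gd14.5 still did not overlap. The rise was 1.82 (SE 0.142, adjusted *p* = 4.27e-07) in WT and 1.46 (SE 0.372, adjusted *p* = 0.00834) in KO, and 2.21 in KO without replicate 2 of gd10.5. Its share of the Slc38a family per kb went from 44.8% ± 4.76 to 70.3% ± 1.02 (SD, n = 3) between gd10.5 and gd14.5 in WT. *Slc38a1* (SNAT1) went from 332, 343 and 405 to 656, 717 and 687 CPM in WT, a log2 fold change of 0.91 (SE 0.122, adjusted *p* = 3.95e-05) that stayed under the fold limit with no overlap of the groups. *Slc38a2*, which is induced by amino acid shortage, was not called at the first step in WT (log2 fold change 0.03, SE 0.112, adjusted *p* = 0.838) and had a log2 fold change of 0.92 (SE 0.113, adjusted *p* = 0.000134) from gd14.5 to gd16.5, also under the limit.

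The promoters of *Slc2a1* and *Slc38a4* are shown because these genes had the highest levels and rose together in both genotypes. The sequences are the 250 bases before the RefSeq transcription start in GRCm38.p6, read 5′ to 3′ on the strand of the gene (*Slc2a1*, chr4:119108495-119108744, forward strand; *Slc38a4*, chr15:97055957-97056206, reverse strand), with the GC box letters GGGCGG or their reverse complement in capitals.
Slc2a1: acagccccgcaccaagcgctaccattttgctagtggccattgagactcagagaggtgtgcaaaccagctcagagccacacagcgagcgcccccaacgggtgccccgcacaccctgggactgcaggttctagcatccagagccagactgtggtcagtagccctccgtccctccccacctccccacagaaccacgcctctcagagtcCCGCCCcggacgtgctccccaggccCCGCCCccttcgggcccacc
Slc38a4: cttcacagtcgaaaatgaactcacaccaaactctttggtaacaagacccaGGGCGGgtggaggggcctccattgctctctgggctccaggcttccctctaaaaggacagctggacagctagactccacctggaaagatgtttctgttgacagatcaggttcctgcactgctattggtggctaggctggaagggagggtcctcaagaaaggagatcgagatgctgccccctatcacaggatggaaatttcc
GGGCGG, searched on both strands, was found 2 times in the *Slc2a1* promoter, which had 66.4% G and C, and 1 time in that of *Slc38a4*, which had 52.8%. The table holds 3 starts of *Slc38a4*, of which the one furthest upstream is shown, and the letters were also found 1 time before the second and not before the third. These letters were in 32.7% of 32851 promoters of the RefSeq table and in 47.3% of the 74 promoters of the 53 members that the table holds. A match describes the letters in this window and says nothing of a factor bound there.

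**Figure D2:**
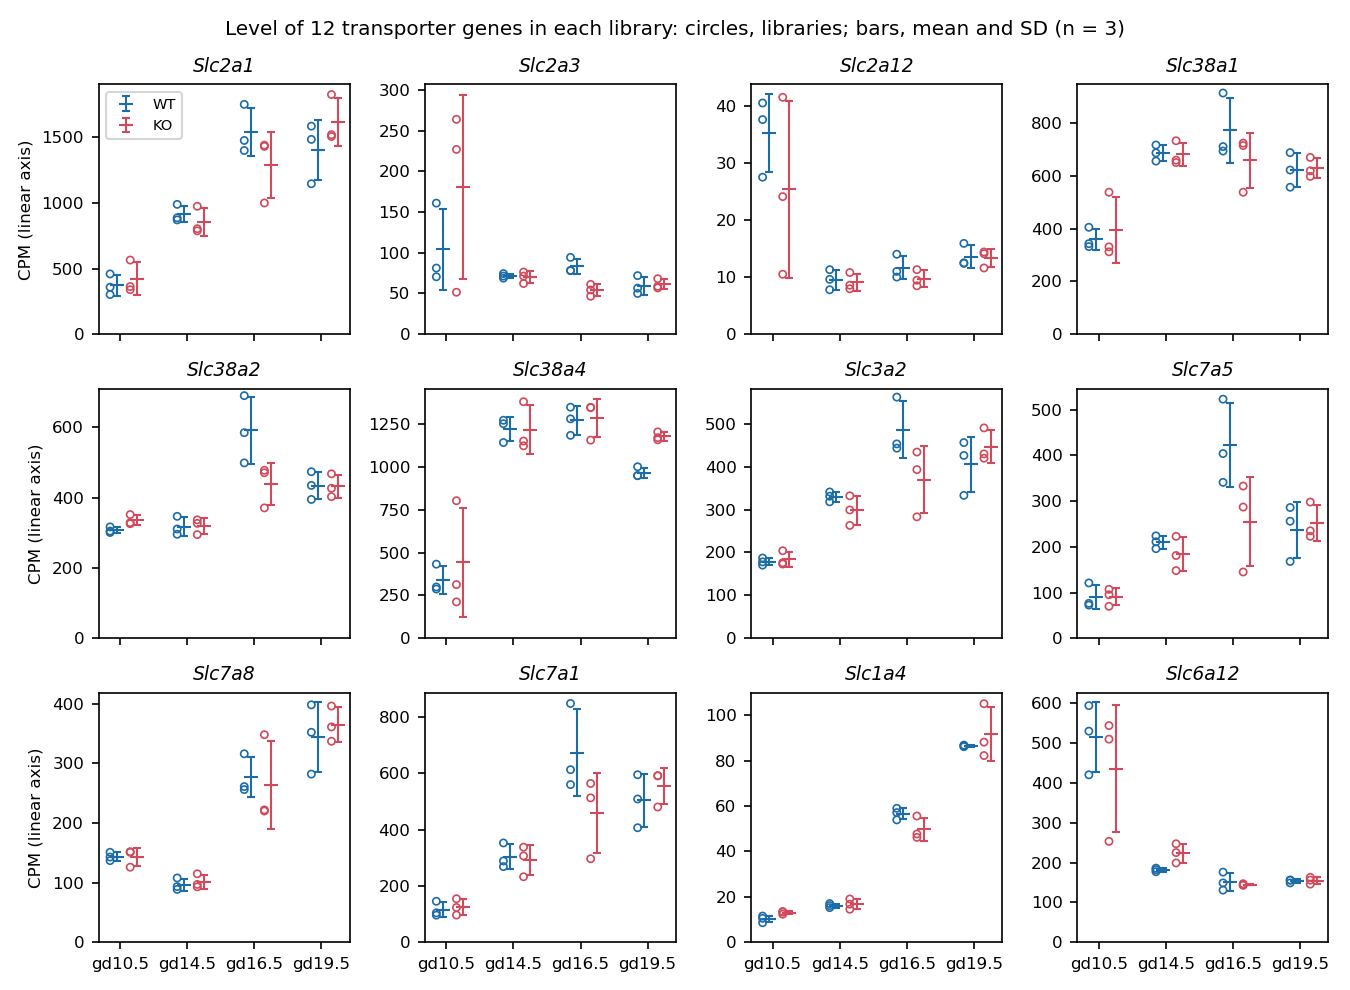
Level in CPM (linear axis from 0) of 12 members in each library at the 4 stages, WT in blue and KO in red, with circles for libraries and bars for the mean and SD of 3. *Slc2a1*, *Slc38a4* and *Slc7a1* have all libraries of gd14.5 above those of gd10.5, *Slc1a4* and *Slc7a8* have those of gd16.5 above those of gd14.5, and *Slc6a12* in WT has those of gd14.5 below those of gd10.5.

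The system L light chain genes *Slc7a5* and *Slc7a8* and their heavy chain gene rose over the span. *Slc3a2* went from 178, 170.5 and 187 CPM at gd10.5 to 318, 341 and 331, 443, 453 and 562 and 456, 426 and 333 CPM at the later stages of WT, and passed over the whole span in WT (log2 fold change 1.20, SE 0.118, adjusted *p* = 1.5e-06) and KO (log2 fold change 1.28, SE 0.156, adjusted *p* = 4.1e-05) but at no single step. *Slc7a5*, which brings in leucine and other large neutral amino acids, had 72.5, 76.4 and 121 CPM in WT at gd10.5, then 211, 224 and 196 (gd14.5), 341, 404 and 523 (gd16.5) and 286, 256 and 168 (gd19.5). The groups of the first 3 stages did not overlap, and *Slc7a5* rose by 1.21 (SE 0.226, adjusted *p* = 0.000571) and then by 1.03 (SE 0.224, adjusted *p* = 0.00589) on the log2 scale. The second of these calls was lost without WT gd14.5 replicate 3 or WT gd16.5 replicate 3, where the log2 fold change passed below 1. In KO the values were 95.2, 107 and 69.9, 148, 181 and 223, 287, 145 and 333 and 298, 235 and 223 CPM. The first KO step passed (log2 fold change 1.01, SE 0.281, adjusted *p* = 0.0126), at the fold limit, and it did not pass without KO gd10.5 replicate 3 or KO gd14.5 replicate 3.

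*Slc7a8* took another course. It had 151, 137 and 143 CPM at gd10.5, then 88.8, 108 and 93.5 (gd14.5), 256, 261 and 316 (gd16.5) and 398, 352 and 282 (gd19.5) in WT, and 151, 126 and 152, 93.1, 97.1 and 115, 348, 222 and 220.1 and 396, 361 and 337 CPM in KO. All libraries of gd14.5 lay below those of gd10.5 and all of gd16.5 above both. The rise from gd14.5 to gd16.5 was 1.54 (SE 0.124, adjusted *p* = 8.07e-06) in WT and 1.40 (SE 0.174, adjusted *p* = 0.00073) in KO. Of the 3 Slc43a genes, *Slc43a1* and *Slc43a2* encode carriers of neutral amino acids that need no heavy chain. *Slc43a1* (LAT3) fell at the first step in both genotypes, from 3.58 ± 0.204 to 1.76 ± 0.267 CPM in WT (log2 fold change -1.05, SE 0.171, adjusted *p* = 0.000198). *Slc43a2* (LAT4) had group means between 44.1 and 60.6 CPM and passed no test, and *Slc43a3* went from 114, 127 and 109 to 66.3, 69.3 and 64.8 CPM in WT at the first step, with a log2 fold change of -0.83 that did not reach the limit.

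The cationic carriers *Slc7a1* and *Slc7a2*, which bring in arginine and lysine, rose early. *Slc7a1* had 96.8, 105 and 146 CPM in WT at gd10.5, then 269, 353 and 289 (gd14.5), 560.1, 613 and 848 (gd16.5) and 595, 509 and 407 (gd19.5). It rose by 1.37 (SE 0.197, adjusted *p* = 6.93e-05) and then by 1.17 (SE 0.195, adjusted *p* = 0.00107), with no overlap at either step, and the second call was lost without WT gd16.5 replicate 3. In KO it rose at the first step (log2 fold change 1.22, SE 0.246, adjusted *p* = 0.00251). *Slc7a2* (CAT2) changed more, from 8.47, 8.05 and 13.9 CPM at gd10.5 to 86.5, 84.2 and 74.5 at gd14.5 in WT (log2 fold change 3.00, SE 0.243, adjusted *p* = 5.56e-07). In KO it went from 6.87, 32.4 and 7.7 to 75.1, 88.4 and 95 CPM (log2 fold change 2.46, SE 0.504, adjusted *p* = 0.00269), with replicate 2 high at gd10.5 and a log2 fold change of 3.56 without it. From gd16.5 to gd19.5 *Slc7a2* went from 115 ± 19.2 to 57.1 ± 17.1 CPM in WT (SD, n = 3), a change of -1 on the log2 scale that was not called. *Slc7a14*, a related gene whose product resides in lysosomes, rose at the first step in both genotypes, by 1.48 in WT and 1.70 in KO. *Slc7a3* (CAT3) fell in WT from 2.39 ± 0.123 to 0.943 ± 0.162 CPM (log2 fold change -1.35, SE 0.251, adjusted *p* = 0.000523), and *Slc7a4* fell over the span in WT and KO, with log2 fold changes of -1.33 and -1.88, from levels near 1 CPM.

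Of the other light chains, *Slc7a6* and *Slc7a7*, which form system y+L for the exit of cationic amino acids, had highest group means of 83.8 and 34.5 CPM. *Slc7a6* rose over the span, by 1.42 in WT and 1.43 in KO, and *Slc7a7* passed no test. *Slc7a10* (Asc-1) was at the limit of detection at gd10.5, with 2 counts in all 3 WT libraries together and 29 at gd14.5, a ratio of 13.5 with a 95% counting interval of 3.42 to 117. In KO 3 counts at gd10.5 and 34 at gd14.5 gave a ratio of 9.62 (3.03 to 49), intervals that cover counting error only. *Slc7a11* (xCT, the cystine and glutamate exchanger) had group means between 0.893 and 1.79 CPM and passed no test at any step.

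Within the Slc1a family the leading neutral carrier changed from *Slc1a5* (ASCT2, which takes up glutamine) to *Slc1a4* (ASCT1). *Slc1a4* had 8.67, 10.6 and 11.6 CPM in WT at gd10.5, then 15.3, 16.2 and 17.1 (gd14.5), 53.9, 59 and 57.1 (gd16.5) and 86.1, 86.4 and 86.8 (gd19.5). In KO it had 13.3, 13.6 and 12.4, 14.6, 16.8 and 19.1, 55.6, 47.7 and 46.2 and 82.2, 105 and 88.1 CPM. No 2 successive stages overlapped in either genotype. The rise from gd14.5 to gd16.5 was 1.83 (SE 0.0924, adjusted *p* = 1.93e-07) in WT and 1.59 (SE 0.124, adjusted *p* = 0.000114) in KO, and over the whole span it was 3.09 (SE 0.0971, adjusted *p* = 9.07e-11) and 2.82 (SE 0.129, adjusted *p* = 1.32e-07). *Slc1a5* had 36, 43.3 and 38.9 CPM in WT at gd10.5 and 61.4, 55 and 40.6 at gd19.5 and passed no test at any step. Per kb of length, *Slc1a5* made up 74% ± 2.77 of the family in WT at gd10.5 and 32.5% ± 4.32 at gd19.5, while *Slc1a4* went from 20.5% ± 1.72 to 57.6% ± 4.81 (SD, n = 3). In KO the shares of *Slc1a5* were 66% ± 7.78 and 26.8% ± 5.76, and those of *Slc1a4* 25.4% ± 2.15 and 61.9% ± 6.16. The sum of the 7 genes grew from 12.8 ± 1.11 to 38.4 ± 2.92 CPM per kb in WT over these stages. These shares are a description, without a test of their own.

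**Figure D3:**
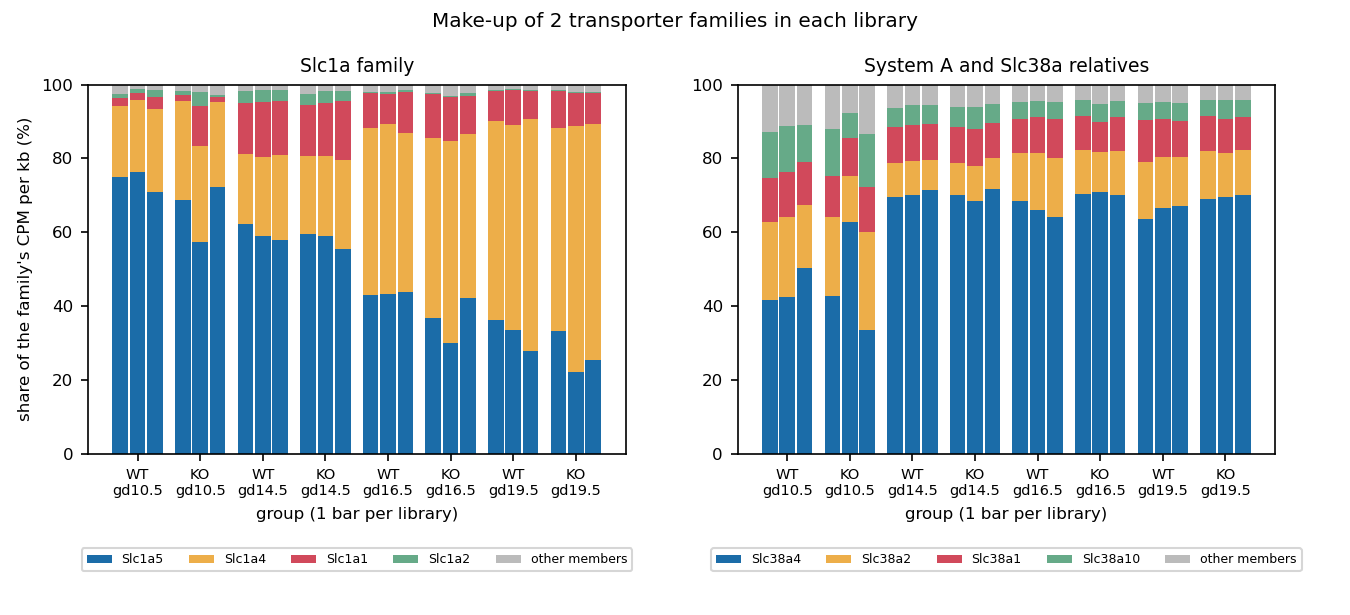
Share of each member in the summed CPM per kb (%) of the Slc1a family and of the Slc38a family, with 1 bar per library in the 8 groups. The blue *Slc1a5* part shrinks from gd10.5 to gd19.5 in both genotypes as the orange *Slc1a4* part grows, and the blue *Slc38a4* part is larger from gd14.5 on, with KO gd10.5 replicate 2 the exception of its group.

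The glutamate carriers of the family followed 3 courses. *Slc1a1* (EAAC1) had 2.07, 1.95 and 3.52 CPM in WT at gd10.5 and 23.2, 23.6 and 22.8 CPM at gd14.5, and rose by 3.21 (SE 0.214, adjusted *p* = 1.21e-07). In KO it went from 1.63, 11.9 and 1.53 to 19.8, 23.5 and 27 CPM (log2 fold change 2.23, SE 0.586, adjusted *p* = 0.00962), replicate 2 being the high library at gd10.5, without which the log2 fold change was 3.88. Of the exon bases of *Slc1a1*, 31.9% are shared with another gene in the annotation, and the count did not use such reads. *Slc1a2* (GLT-1) peaked at gd14.5, with 1.69, 2.08 and 3.36, 9.04, 7.84 and 7.4, 1.7, 1.84 and 2.74 and 0.874, 0.888 and 1.53 CPM at the 4 stages of WT. Its rise (log2 fold change 1.76, SE 0.269, adjusted *p* = 0.000115) and its fall (log2 fold change -1.93, SE 0.276, adjusted *p* = 0.000375) both passed in WT, with no overlap of the groups. In KO the values were 1.49, 6.3 and 1.08, 7.07, 8.32 and 7.1, 1.62, 0.982 and 2.34 and 1.43, 1.35 and 0.75 CPM. There the fall passed (log2 fold change -2.18, SE 0.571, adjusted *p* = 0.0244) but was lost without any of 5 libraries of gd14.5 and gd16.5. *Slc1a3* (GLAST) rose over the span, from 1.56, 0.648 and 0.663 to 2.66, 2.74 and 2.24 CPM in WT (log2 fold change 1.43, SE 0.292, adjusted *p* = 0.000783). *Slc1a6* stayed under 1 CPM in every group mean, and its call from gd14.5 to gd16.5 in WT (1.19, adjusted *p* = 0.0229) was lost in 9 of the alternative fits.

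The Slc6a carriers moved in both directions. *Slc6a12*, the highest of them per kb, had 529, 593 and 419.7 CPM in WT at gd10.5, then 182, 177 and 186 (gd14.5), 149, 131 and 176 (gd16.5) and 156, 156 and 149 (gd19.5). It fell by 1.52 on the log2 scale at the first step (SE 0.12, adjusted *p* = 4.66e-07). In KO it had 509, 253 and 543 CPM at gd10.5, with replicate 2 low, and 247, 225 and 199 at gd14.5, a change of -0.97 that stayed under the fold limit (adjusted *p* = 0.00479). Without that replicate *Slc6a12* was called there (log2 fold change -1.24, adjusted *p* = 1.13e-06). Its neighbour *Slc6a13* (GAT2), which carries GABA and taurine and lies in the same orientation on chromosome 6 (chr6:121300227-121337733, forward strand, against chr6:121343076-121365775, forward strand, GRCm38), moved the other way at the first step. *Slc6a13* had 6.95, 2.86 and 4.64, 16, 11.4 and 10.8, 8.2, 8.13 and 13.6 and 1.47, 0.962 and 1.41 CPM at the 4 stages of WT and 3.12, 11 and 4.84, 15.1, 15.4 and 12.5, 3.1, 3.22 and 5.22 and 1.95, 1.42 and 1.02 CPM in KO. It rose at the first step in both genotypes (1.39 in WT, 1.18 in KO). The KO call was lost without KO gd10.5 replicate 1 or 3 or KO gd14.5 replicate 1 or 2, and with yolk sac markers as a covariate. *Slc6a13* then fell in WT from gd16.5 to gd19.5 (log2 fold change -2.94, SE 0.341, adjusted *p* = 0.000552) and in KO from gd14.5 to gd16.5 (log2 fold change -1.88, SE 0.4, adjusted *p* = 0.00991). At gd19.5 both genotypes were below 2 CPM.

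*Slc6a14*, a broad carrier of neutral and cationic amino acids, rose at the first step in WT and KO (2.07 (SE 0.2, adjusted *p* = 2.47e-06) and 2.00 (SE 0.404, adjusted *p* = 0.00251)), to 5.89 ± 0.176 and 5.35 ± 0.0591 CPM. *Slc6a4* (the serotonin carrier SERT), known from decidua and placenta, had 4.71, 3.61 and 3.62, 7.25, 6.15 and 5.87 and 12.1, 13 and 15 CPM at gd14.5, gd16.5 and gd19.5 of WT, and rose at the last step (log2 fold change 1.07, SE 0.275, adjusted *p* = 0.0339), a call lost without any of 7 libraries. *Slc6a9* (the glycine carrier GlyT1) fell over the span in both genotypes, with log2 fold changes of -1.56 in WT and -2.37 in KO, and *Slc6a18* fell at the first step in both, with -1.41 and -2.30. *Slc6a17* rose over the span, by 1.90 in WT and 2.25 in KO.

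Several Slc6a genes of high level did not pass at any step. *Slc6a6* (the taurine carrier TauT) had group means from 289 to 359 CPM over all 8 groups, and its log2 fold change over the span was 0.19 in WT and 0.15 in KO. *Slc6a8* went from 273, 282 and 215 CPM to 164, 166 and 161 CPM in WT at the first step and back to 216, 231 and 259 CPM at gd16.5, changes of -0.67 and 0.54 under the fold limit. *Slc6a2* had 329, 284 and 338 CPM at gd10.5 and 187, 160.1 and 173 CPM at gd19.5 in WT, without overlap and with a log2 fold change of -0.85.

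Among the other Slc38a carriers, to which system N for glutamine and histidine belongs, none rose. *Slc38a3* (SNAT3) fell at the first step in WT from 9.5, 7.97 and 13.2 to 4.36, 3.92 and 4.04 CPM (log2 fold change -1.33, SE 0.204, adjusted *p* = 0.000115) and in KO likewise (log2 fold change -1.32, SE 0.373, adjusted *p* = 0.0136), and *Slc38a5* (SNAT5) fell in both from about 1 CPM. *Slc38a8* fell at the second step, from 3.69, 1.85 and 2.34 to 0.331, 0.307 and 0.685 CPM in WT (log2 fold change -2.57, SE 0.387, adjusted *p* = 0.000546) and from 2.56, 3.48 and 1.46 to 0.0984, 0.184 and 0.27 CPM in KO (log2 fold change -3.71, SE 0.475, adjusted *p* = 0.000866). *Slc38a6* had group means of 6.99 to 13.3 CPM and passed no test. The lysosomal sensor gene *Slc38a9* and *Slc38a7* and *Slc38a10* passed no test at any step, with highest group means of 35.2, 80.5 and 145 CPM. Of the proton-coupled carriers of the Slc36a family, *Slc36a4* rose over the span in KO (log2 fold change 1.11, SE 0.0978, adjusted *p* = 4.75e-06) and had a log2 fold change of 0.80 in WT. *Slc36a1* had a log2 fold change of -0.95 in WT over the span, within the fold limit, and *Slc36a2* and *Slc36a3* had group means under 1 CPM, where each passed in both directions (*Slc36a2* in KO, *Slc36a3* in WT) on few reads. *Slc36a2* had 1.7, 1.28 and 0.982 CPM in the 3 libraries of gd16.5 with yolk sac markers and 0.0439 to 0.294 CPM in the other 3, and the part of these markers was not tested. The low members *Slc6a15* and *Slc7a15* had group means of 0.713 to 1.01 and 0.0988 to 0.777 CPM and passed no test. The 10 members in no comparison, *Slc1a7*, *Slc6a3*, *Slc6a5*, *Slc6a7*, *Slc6a11*, *Slc6a16*, *Slc6a21*, *Slc7a12*, *Slc7a13* and *Slc38a11*, had group means of at most 0.203 CPM.

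Some epithelial carriers were high in libraries with yolk sac markers, *Slc7a9* and *Slc2a2* at both gd10.5 and gd16.5 and *Slc3a1* and *Slc6a19* at gd16.5. *Slc7a9* (the b0,+ light chain, which pairs with *Slc3a1* in kidney and gut) had 3.11 to 25.5 CPM in the 7 libraries over 1000 CPM of these markers and 0.216 to 1.15 CPM in the other 17. *Slc2a2* (GLUT2, the low-affinity glucose carrier of liver, gut and yolk sac) had 2.84 to 40.7 CPM in the 7 and no more than 0.787 CPM in the others. *Slc3a1* (the heavy chain rBAT) was high only at gd16.5, with 7.54 CPM in WT replicate 1 and 9.4 and 34.2 CPM in KO replicates 1 and 2, against 0.342 to 0.765 CPM in the other 3 libraries of that stage. At gd10.5 it had 0.297 to 0.691 CPM in all 6 libraries, 4 of which held yolk sac markers. *Slc6a19* (B0AT1, the neutral carrier of gut and kidney) was likewise high at gd16.5 in the 3 marked libraries, between 9.1 and 20.1 CPM, against 1.84 to 3.13 CPM in the other 3. The summed markers ranged at gd10.5 from 37.3 to 3913 CPM in WT and 1261 to 3911 in KO, at gd14.5 from 145 to 223 and 113 to 129, at gd16.5 from 229.7 to 7684 and 207 to 20185, and at gd19.5 from 277 to 456 and 229.8 to 282 CPM.

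These genes were called at steps between groups with and without marked libraries. At the first KO step *Slc7a9* had 10.3, 3.11 and 14.2 CPM at gd10.5 and 0.694, 0.26 and 0.499 at gd14.5 (log2 fold change -4.27, SE 1.05, adjusted *p* = 0.00682), and *Slc2a2* had 33, 2.84 and 40.7 and 0.347, 0.338 and 0.23 CPM (log2 fold change -6.35, SE 1.25, adjusted *p* = 0.0022). *Slc2a2* fell in WT as well (log2 fold change -4.68, SE 1.57, adjusted *p* = 0.0218), although the high value at gd10.5 was that of 1 library, 27, 0.432 and 0.787 CPM, and without the marked WT libraries it was not called (log2 fold change -0.70, adjusted *p* = 0.343). From gd14.5 to gd16.5 in KO, *Slc3a1* (4.81), *Slc7a9* (4.71), *Slc2a2* (4.29) and *Slc6a19* (2.90) rose on the log2 scale. With the summed markers as a covariate, the log2 fold change was -0.05 for *Slc3a1* and -0.24 for *Slc6a19*, and without KO gd16.5 replicates 1 and 2 none of the 4 was called. That fit has 1 library at gd16.5, which is taken to vary like the other groups, and gave 0.52 for *Slc3a1*, 0.33 for *Slc7a9*, -1.15 for *Slc2a2* and 0.40 for *Slc6a19*. In WT, *Slc6a19* rose from gd14.5 to gd16.5 (log2 fold change 1.70, SE 0.429, adjusted *p* = 0.0132) and was not called without WT gd16.5 replicate 1. Whether yolk sac tissue in the sample set these values was not tested. Of the exon bases of *Slc3a1*, 26.5% are shared with *Prepl* on the opposite strand, and reads on these bases were not counted for either gene.

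The promoters of *Slc2a2*, *Slc7a9* and *Slc3a1* are shown because these members were high in the libraries of gd16.5 with yolk sac markers. The table holds 2 starts of *Slc7a9*, of which the upstream one is shown. The 250 bases before the RefSeq start in GRCm38.p6 are given 5′ to 3′ on the strand of the gene (*Slc2a2*, chr3:28697653-28697902, forward strand; *Slc7a9*, chr7:35448842-35449091, forward strand; *Slc3a1*, chr17:85028097-85028346, forward strand), with the GATA letters AGATAA or their reverse complement in capitals.
Slc2a2: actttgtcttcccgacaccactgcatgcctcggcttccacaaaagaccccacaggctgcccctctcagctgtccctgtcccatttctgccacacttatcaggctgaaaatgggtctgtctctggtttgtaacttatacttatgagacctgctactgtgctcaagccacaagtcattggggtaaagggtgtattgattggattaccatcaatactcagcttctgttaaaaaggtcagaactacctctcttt
Slc7a9: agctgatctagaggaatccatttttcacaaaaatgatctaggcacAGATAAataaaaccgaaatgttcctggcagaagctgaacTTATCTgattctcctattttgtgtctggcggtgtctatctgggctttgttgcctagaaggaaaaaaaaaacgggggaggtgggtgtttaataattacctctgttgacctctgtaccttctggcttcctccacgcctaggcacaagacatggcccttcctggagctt
Slc3a1: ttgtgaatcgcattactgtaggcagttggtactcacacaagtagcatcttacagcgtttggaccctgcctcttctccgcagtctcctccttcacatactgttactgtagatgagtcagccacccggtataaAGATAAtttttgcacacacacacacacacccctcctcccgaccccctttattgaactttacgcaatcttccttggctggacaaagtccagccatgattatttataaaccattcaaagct
AGATAA, searched on both strands, was found 2 times in the promoter of *Slc7a9*, 1 time in that of *Slc3a1* and not in that of *Slc2a2*. It was not found before the second start of *Slc7a9*. The promoter of *Slc6a19*, which was also high in these libraries, is not shown. It held neither AGATAA nor GGGCGG and had 57.6% G and C. AGATAA was in 9.99% of all 32851 promoters and in 5.41% of the 74 promoters of members. With 47.2%, 44.4% and 45.6% G and C for *Slc2a2*, *Slc7a9* and *Slc3a1*, all 3 promoters shown were lower than the *Slc2a1* promoter and none held GGGCGG.

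**Figure D4:**
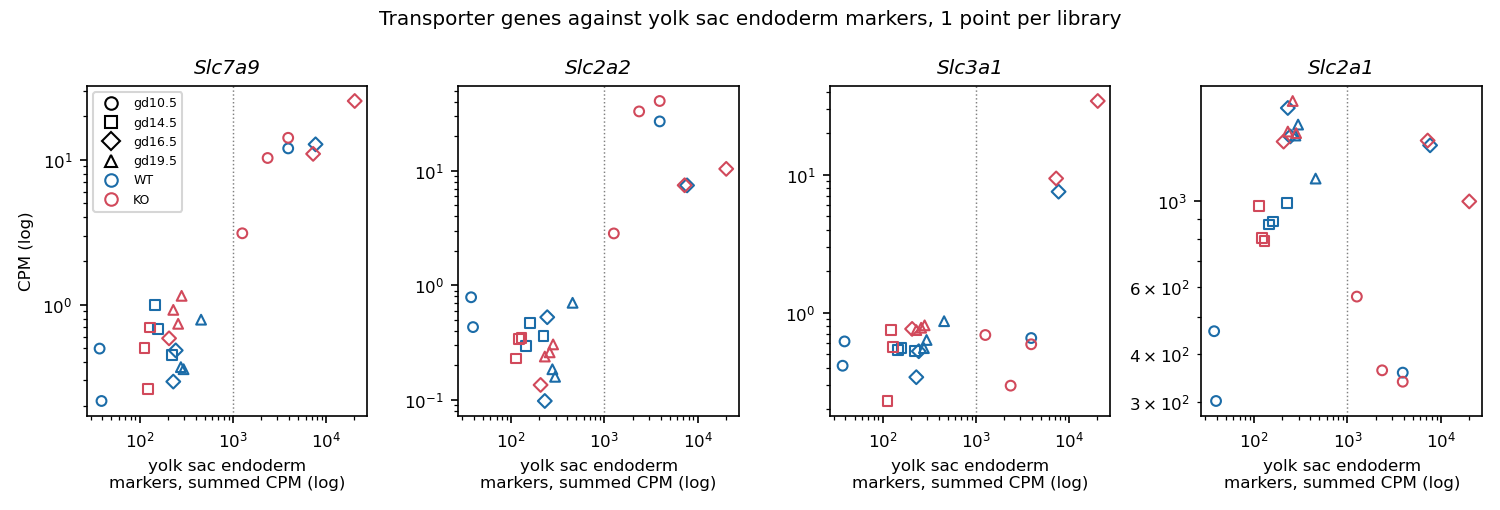
Level of *Slc7a9*, *Slc2a2*, *Slc3a1* and *Slc2a1* in CPM (log axis) against the summed CPM of 8 yolk sac endoderm markers (log axis), with 1 point per library, shapes for stages, colours for genotypes and a dotted line at 1000 CPM. *Slc7a9* and *Slc2a2* are high in the 7 libraries right of the line, *Slc3a1* only in those of gd16.5, and *Slc2a1* is ordered by stage instead.

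The second question was whether the carriers differ between C1qtnf6-KO and WT. No member passed the test of edgeR at any stage. At gd10.5, 57 members were tested and 0 were called, against 0.00572% of all genes, with 0 members at an unadjusted *p* under 0.05 (0.801% of all genes). At gd14.5, 60 were tested and 0 called (0.0166% of all genes), with 1 under 0.05 (6.78%). At gd16.5, 58 were tested and 0 called (0.00586% of all genes), with 11 under 0.05, 19% of the members against 11.1% of all genes. At gd19.5, 55 were tested and 0 called (0.023% of all genes), with 10 under 0.05, 18.2% against 13.5%. DESeq2, as run here, called *Slc6a13* at gd16.5, as did edgeR without the expression filter, and limma voom called no member at any stage. In the study's own DESeq2 list *Slc6a13* was lower in KO at gd16.5, with an adjusted *p* above its limit of 0.05. With DESeq2 the study reported more changed genes at this stage than edgeR called here. The medians of the members were 0.05, 0.01, -0.16 and 0.05 at the 4 stages, beside 0.01, 0, 0.01 and -0.01 over all genes. For *Slc2a1* the log2 fold changes with their SE were 0.17 (0.246), -0.09 (0.1), -0.23 (0.166) and 0.18 (0.131), none larger than the spread between libraries by this test.

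At gd16.5, 38 of the 58 members were lower in KO and 20 higher by their fitted values, and the groups did not overlap for 18 members, 31% against 18.5% of all genes. For 16 of these KO was lower, 27.6% against 11.4% of all genes. Among them were *Slc1a5*, *Slc2a3*, *Slc3a2*, *Slc6a8*, *Slc6a13*, *Slc6a14*, *Slc7a2*, *Slc7a5*, *Slc7a7*, *Slc38a2* and *Slc43a1*, a list found after the values were seen; it holds glutamine, cationic, system A and system L carriers and the heavy chain. For *Slc1a3* and *Slc36a4* KO was higher (7.16% of all genes). The difference with the smallest *p* was that of *Slc2a3*, with 78, 78.3 and 94.3 CPM in WT and 54.3, 46.5 and 61.1 CPM in KO (log2 fold change -0.60, SE 0.122, unadjusted *p* = 0.00138, adjusted *p* = 0.354 in edgeR). *Slc6a13* had 8.2, 8.13 and 13.6 CPM in WT and 3.1, 3.22 and 5.22 CPM in KO (log2 fold change -1.35, SE 0.28, unadjusted *p* = 0.00157, adjusted *p* = 0.354), and its adjusted *p* over the alternatives ran from 0.000589 to 0.796. *Slc36a4* had 56.4, 55.9 and 60.1 and 64.4, 70.6 and 64.7 CPM (log2 fold change 0.24, adjusted *p* = 0.414).

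*Slc7a5* had 341, 404 and 523 CPM in WT and 287, 145 and 333 CPM in KO at gd16.5 (log2 fold change -0.70, SE 0.298, adjusted *p* = 0.45), *Slc38a2* 499, 585 and 690.4 and 471, 371 and 478 CPM (log2 fold change -0.40, SE 0.149, adjusted *p* = 0.433), and *Slc1a5* 54.1, 58.2 and 61.9 and 44.8, 28 and 46.9 CPM (log2 fold change -0.52, SE 0.187, adjusted *p* = 0.431). All KO libraries of these genes lay below all WT libraries, and none passed after adjustment. *Slc38a4* did not share this, with 1279, 1183 and 1347 and 1345, 1155 and 1346 CPM (log2 fold change 0.04, SE 0.106, adjusted *p* = 0.874). For *Slc7a5*, *Slc38a2* and *Slc1a5* the lowest library was KO replicate 2, which had 20185 CPM of yolk sac markers. WT replicate 1 and KO replicate 1 also held such markers. KO replicate 3, which did not, was still below WT replicates 2 and 3 for these genes. The part of the yolk sac markers was not tested. Markers of the cell layers differed at this stage too. The 7 markers of spongiotrophoblast and glycogen cells summed to 27755 to 38416 CPM in WT and 45971 to 49747 in KO, and the 7 of giant cells to 18093 to 25176 and 26643 to 30987 CPM. The 8 labyrinth trophoblast markers summed to 754 to 895 CPM in WT and 535 to 736 CPM in KO, and the 7 endothelial markers to 1052 to 1451 and 757 to 1105 CPM. Those of smooth muscle summed to 510.2 to 708 CPM in WT and 389 to 466 in KO, and those of neural and other embryo tissue to 98.5 to 117 and 65.4 to 98.3 CPM. The groups overlapped for endothelium and for the yolk sac markers, and did not for the other 5 of these lists. The part of these cell types in the lower carrier levels was not tested.

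**Figure D5:**
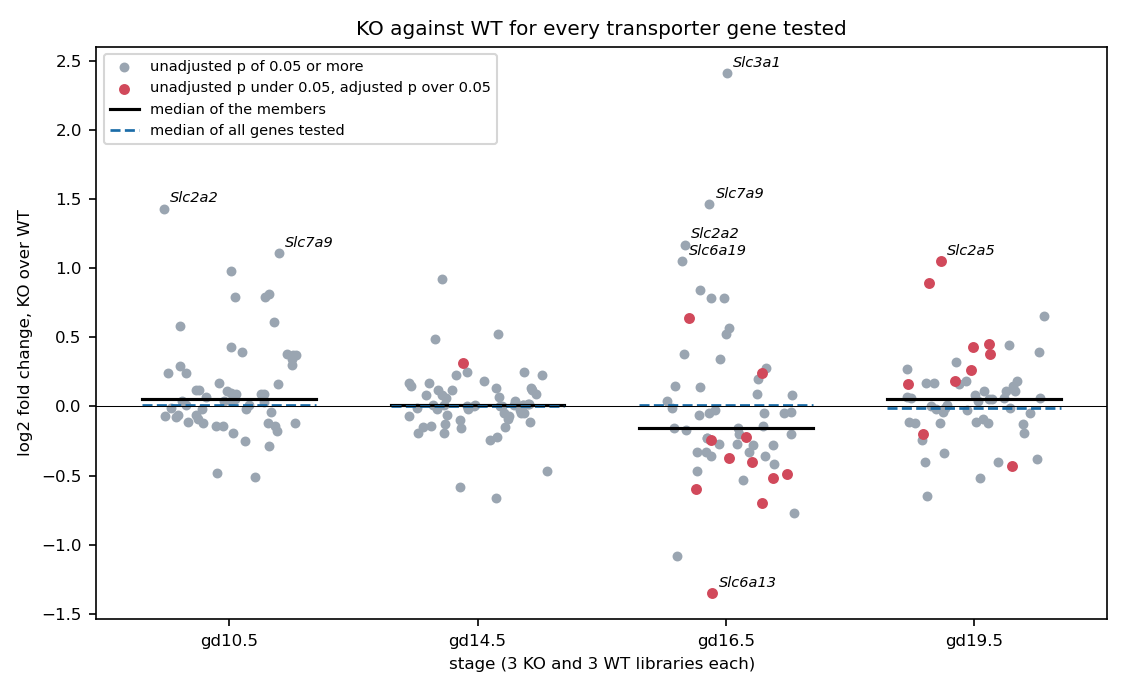
Log2 fold change of KO over WT for each member tested at the 4 stages (1 point per member, red for an unadjusted *p* under 0.05), with the median of the members (black line) and of all genes tested (blue dashes). No point passed after adjustment, the black line lies below the blue one at gd16.5, and the members furthest up at gd10.5 and gd16.5 are *Slc2a2*, *Slc3a1* and *Slc7a9*.

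At gd19.5 the groups did not overlap for 12 of 55 members, 21.8% against 21.4% of all genes, KO being higher for 8 of them and lower for 4 (13% and 8.4% of all genes). *Slc6a4* had 12.1, 13 and 15 CPM in WT and 17.8 ± 1.04 CPM (SD, n = 3) in KO (log2 fold change 0.38, SE 0.102, adjusted *p* = 0.187), *Slc38a4* 948, 999.8 and 948 and 1203, 1157 and 1169.6 CPM (log2 fold change 0.26, SE 0.0801, adjusted *p* = 0.238), and *Slc6a19* 4.85, 4.22 and 4.47 and 2.99, 3.65 and 3.55 CPM (log2 fold change -0.43, SE 0.138, adjusted *p* = 0.241). Libraries of the genotypes were apart for all 3 genes, and the differences did not pass after adjustment. At gd14.5 the smallest *p* was that of *Slc6a12*, with 182, 177 and 186 CPM in WT and 247, 225 and 199 CPM in KO (log2 fold change 0.31, SE 0.0776, adjusted *p* = 0.561), followed by *Slc7a14* (log2 fold change 0.49, SE 0.222, adjusted *p* = 0.736) and *Slc6a18* (log2 fold change -0.66, SE 0.333, adjusted *p* = 0.752). At gd10.5 it was that of *Slc1a4*, with 8.67, 10.6 and 11.6 and 13.3, 13.6 and 12.4 CPM (log2 fold change 0.34, SE 0.144, adjusted *p* = 1), then *Slc6a9* (0.43) and *Slc7a7* (0.24). At gd10.5 replicate 2 of KO stood apart from the other KO libraries for several members, *Slc38a4* among them with 313, 802 and 212 CPM in KO against 287, 299 and 432 CPM in WT.

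Whether the genotype effect differs between stages was tested over all 24 libraries. The genotype-by-stage interaction called 0 of 63 members with edgeR, against 0% of all genes, with 6 members under an unadjusted *p* of 0.05 (7.23% of all genes) and a smallest adjusted *p* among the members of 0.624. The 3 with the smallest *p* were *Slc6a13* (adjusted *p* = 0.624), *Slc7a7* (0.662) and *Slc38a2* (0.662). Without KO gd10.5 replicate 2, 1 member was called. The genotype effect over all stages, in an additive model, called 0 of 63 members as well, against 0.0155% of all genes, with 6 under 0.05 (6.34%). Its smallest adjusted *p* among the members was 0.707, and the leading members were *Slc2a5* (log2 fold change 0.65), *Slc1a5* (-0.26) and *Slc1a3* (0.34).

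Related genes outside the families were followed in 3 lists written from general knowledge. Of 20 genes of the ATF4 response to amino acid shortage, 2 rose and 5 fell in WT from gd10.5 to gd14.5, against 10.7% and 11.6% of all genes, with a median log2 fold change of -0.21 beside -0.01 over all genes. *Asns* (asparagine synthetase) fell (-1.13, SE 0.105, adjusted *p* = 1.79e-06), as did the serine synthesis gene *Psat1* (-2.48, SE 0.303, adjusted *p* = 1.79e-05), the mitochondrial folate enzyme gene *Mthfd2* (-1.43, SE 0.166, adjusted *p* = 1.15e-05), *Chac1* and *Gpt2*, while *Atf3* and *Sesn2* rose. In KO, 1 rose and 6 fell at this step, against 8.53% and 10.2% of all genes, with *Asns* at -1.13, SE 0.178, adjusted *p* = 0.000706. These 5 genes fell in WT at the step at which *Slc38a4*, *Slc7a1* and *Slc7a5* rose. Of the genes of glucose entry and phosphorylation, 19 were tested in WT and 18 in KO, and 1 rose and 1 fell at the first step in each, while 22.2% of all genes were called in WT and 18.7% in KO. *Arrdc4*, a glucose-responsive arrestin gene, fell in both (-1.52, SE 0.118, adjusted *p* = 4.14e-07 in WT and -1.25, SE 0.29, adjusted *p* = 0.00509 in KO). Of 16 other sugar and amino acid carriers tested in WT, 4 rose and 2 fell at the first step, against 10.7% and 11.6% of all genes. *Slc5a1* (the sodium-glucose carrier SGLT1) rose from gd14.5 to gd16.5 in WT (2.74, SE 0.88, adjusted *p* = 0.0409) and KO (4.43, SE 0.913, adjusted *p* = 0.00851). Its group means at gd14.5, gd16.5 and gd19.5 were low, 0.379, 2.55 and 0.708 CPM in WT and 0.347, 7.72 and 0.602 CPM in KO. Libraries with yolk sac markers were in both gd16.5 groups, and the part of these markers was not tested. None of the 3 lists had a call between KO and WT at any stage with edgeR, and at an unadjusted *p* under 0.05 they had at most 3 members at a stage, the 3 being of the 14 other carriers tested at gd14.5, where 6.78% of all genes had such a *p*.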

How the data were processed

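RNA of 24 MFI samples, 3 per genotype and stage, was extracted with Trizol, and stranded polyA libraries were read in pairs. Per the submitters' processing notes and the methods of the study, reads were trimmed with Trim Galore 0.6.4, aligned to GRCm38 with STAR 2.7.3a and counted on genes with featureCounts of Subread 2.0.0 at default settings, which ignore strand and skip reads with several positions or several genes. The authors deposited these raw counts in 1 table without normalization, and 0 columns belong to other samples. Levels of close paralogs and overlapping genes carry that limit. Exon bases are shared with another gene for 13 members, for 0 of them over 50% of the bases.

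Groups came from the labels. The titles of KO samples number replicates 3, 4 and 5 and the descriptions 1, 2 and 3, which are used here. In R 4.3.3, the quasi-likelihood test of edgeR 4.0.16 was run on all genes with TMM, on genes kept by filterByExpr (min.count 10, min.total.count 15). KO was compared with WT within a stage on 6 libraries, stages within a genotype on 12, and the interaction and the additive genotype effect on 24. A gene was called at a Benjamini-Hochberg adjusted p below 0.05 with a log2 fold change beyond 1 in size (no fold limit for the interaction and additive fits). The SE is the absolute log2 fold change over the root of F. An exact permutation test of 3 against 3 libraries cannot go below 0.1 and was not used. No 2 replicates agreed within counting error, the chi-square over its degrees of freedom being 7.86 to 169 for the 24 pairs. Intervals and limits of detection cover counting error only. Values of some genes are not reported here.

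The genes named are carriers known for placental or decidual supply, up to 5 called members per comparison and direction with the largest change and no overlap of the groups, the 3 members with the smallest p in each comparison of genotypes, and the 10 with the highest CPM per kb. Other members were named after their values were seen. The members, families, marker lists and tests were chosen with earlier results of these data known, and the marker lists came from general knowledge. Alternatives were RLE size factors, no filter or at least 10 counts in every library, all 24 libraries in the fit, a replicate block, a covariate of Y-linked genes, leaving out each library, DESeq2 1.42.0, limma 3.58.1 voom with quality weights, no fold limit and an adjusted p under 0.1. Yolk sac markers as a covariate and leaving out the libraries rich in them were added after the data were seen. On simulated counts with 200 genes changed by 2 on the log2 scale, edgeR recovered 99.5% between gd10.5 and gd14.5 in WT and 99.5% between genotypes at gd16.5, among 17995 and 16849 genes. The changed genes left out the lowest levels, and the simulated spread followed the trend over genes, without outlying libraries. The recovery says nothing of the power for smaller changes, such as most of those between genotypes at gd16.5.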

Additional observations from a re-analysis of the deposited data

Results flagged for a closer look

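For 3 members, every KO library was above every WT library at 1 stage and below them at another, which is 4.92% of the 61 members tested at 2 or more stages, against 4.58% of 17873 genes. *Slc2a10* had a KO minus WT log2 fold change of -0.27 at gd16.5 and 0.17 at gd19.5, with an adjusted p of 0.718 for the genotype-by-stage interaction in edgeR. *Slc38a2* had 0.12 at gd10.5 and -0.40 at gd16.5, with an adjusted interaction p of 0.662. *Slc43a1* had -0.33 at gd16.5 and 0.45 at gd19.5, also with 0.662. The interaction test called none of them, and none passed after adjustment at a single stage.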

How the results depend on the processing

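Of the alternative counts of members that passed, 291 were within 1.5 times the count given and 35 were not; for single genes 2191 alternatives kept direction and side of the threshold, 112 lost the call, 2 gained it and 2 reversed. The cause of a move was not tested unless the setting itself gives it. With no fold limit the counts of members were 38, 19 and 9 for the WT steps in order, and 21 and 2 for the second and last KO steps. Requiring 10 counts in every library, which removes low genes, gave 7 for the second step in WT and 7 in KO. Without the expression filter 9 members passed at the last WT step, 7 at the last KO step and 1 between genotypes at gd16.5. DESeq2 gave 4, 7 and 1 for these, and limma voom 1 and 3 for the last WT and KO steps. With Y-linked expression as a covariate, 8 passed at the second KO step. With yolk sac markers as a covariate, 4 passed at the last WT step, 5 at the first KO step and 1 at the second, and the log2 fold changes of *Slc3a1* and *Slc6a19* at the second KO step reversed to -0.05 and -0.24. Without libraries rich in these markers, 5 passed at the second KO step and 3 at the last. The last KO step gave 3 with all 24 libraries in the fit and 6 at an adjusted p under 0.1.

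Leaving out each library in turn gave 20 to 25, 6 to 11, 1 to 3 and 28 to 32 calls for the WT steps and span, 15 to 29, 6 to 14, 0 to 7 and 32 to 37 for those of KO, 0 to 1 for the interaction and 0 for genotype at each stage and over all stages. Deviations of same-numbered WT and KO samples correlated from -0.61 to 0.54, which does not settle whether the numbers pair the samples. The replicate block, which pairs them by number only, gave 21, 11, 2 and 31 calls in WT, 23, 11, 0 and 32 in KO and 0 between genotypes; at gd14.5 and gd19.5 every WT sample correlated best with the KO sample of its own number, a hint from the data, not the design. RLE size factors moved the median of all genes by at most 0.007. The fits without libraries rich in yolk sac markers could not be made for contrasts with KO gd10.5. Members under 1 CPM rest on few reads, and a change in them was not detectable at this depth unless large.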
